A study of Mus musculus with 11 samples.

Results

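Brain endothelial nuclei were described in single-nucleus RNA profiles of the cortex of perfused mouse brains. The nuclei were chosen by measured values: a nucleus with 300 to 8000 detected genes and at most 5% mitochondrial UMIs was taken as endothelial when at least 3 of 7 marker genes (Flt1, Cldn5, Mecom, Adgrl4, Slco1a4, Abcb1a and Ptprb) had at least 1 UMI and Slc17a7, a gene of excitatory neurons, had at most 1. A UMI is a molecular tag that counts 1 captured RNA molecule once. This gave 536 endothelial nuclei of 112539 nuclei within the limits, or 0.476%, and each mouse contributed between 14 and 98 of them.

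The cortices came from 11 mice with 1 library each, in 4 groups. The labels give all mice as female, whereas the study's methods name males for RNA sequencing. Over all kept nuclei Xist, which is transcribed from the inactive X chromosome of females, stood at 794 to 1493 CPM (counts per 1000000 UMIs) in the 11 mice, and 4 Y-linked genes together stood at 1.12 to 1.75 CPM. All mice had received tamoxifen. The 4 Ikbkb+/+ mice carried neither the tau transgene nor Cre: replicates 1 and 2 came from the floxed Ikbkb line, both aged 10.03 months, and replicates 3 and 4 from the line with a floxed-stop active IKKβ allele, aged 10.85 and 9.8 months. The 3 Ikbkb+/+;P301S+ mice carried the human P301S tau transgene of the PS19 line without Cre, with replicates 1 and 2 from the floxed line at 9.15 and 10.03 months and replicate 3 from the active line at 10.75 months. The 2 Ikbkb-/-;P301S+ mice, aged 8.39 and 9.15 months, carried P301S tau and a tamoxifen-inducible Cre in 1 Cx3cr1 allele that removes Ikbkb, the gene of the kinase IKKβ, from microglia. The 2 IkbkbCA;P301S+ mice, aged 10.85 and 9.8 months, carried P301S tau and the same Cre, which there switches on an active IKKβ. Cre and the altered Cx3cr1 allele were present only in these last groups and cannot be told apart from the change in Ikbkb. The Cre is driven by a gene of microglia and related macrophages, so neither manipulation was aimed at endothelial cells, and the comparisons ask whether endothelial RNA differed with tau or with microglial NF-κB signalling.

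Endothelial cells line every vessel of the brain and form the blood-brain barrier. Tight junction proteins seal the gaps between them, transporters in their membranes carry glucose, amino acids, thyroid hormone and lipids inward and pump drugs outward, and vesicle traffic across the cell is kept low. Wnt/β-catenin signalling from neural cells holds this programme in place, and the cells change along the vessel tree, with arterial cells bearing ephrin and VEGF-Notch genes, venous cells bearing adhesion and cytokine receptor genes, and capillary cells bearing most of the transporters.

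Several endothelial genes are known to be driven through ETS transcription factors, whose sites share a GGAA core. The RefSeq promoters of 4 genes that were high in these nuclei, of which Cldn5 and Flt1 are markers, are shown for that reason: the barrier claudin Cldn5, the VEGF receptor Flt1, the angiopoietin co-receptor Tie1 and the guidance receptor Robo4. Each run is the 250 bases before a RefSeq start, 5′ to 3′ on the gene's strand, and capitals mark AGGAAG or its reverse complement CTTCCT (GRCm38.p6, chr16:18776597-18776846 plus strand for Cldn5, chr5:147726012-147726261 minus strand for Flt1, chr4:118489850-118490099 minus strand for Tie1 and chr9:37401722-37401971 plus strand for Robo4). By the GENCODE gene positions used elsewhere here, part of the Tie1 and Robo4 windows lies inside the gene (chr4:118471191-118490061 and chr9:37401897-37415115). The marked copy of Robo4 lies in that part.
Cldn5: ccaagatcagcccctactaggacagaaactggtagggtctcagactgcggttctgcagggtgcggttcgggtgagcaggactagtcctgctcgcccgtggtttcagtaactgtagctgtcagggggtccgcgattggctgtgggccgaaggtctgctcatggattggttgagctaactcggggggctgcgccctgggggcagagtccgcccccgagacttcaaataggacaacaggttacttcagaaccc
Flt1: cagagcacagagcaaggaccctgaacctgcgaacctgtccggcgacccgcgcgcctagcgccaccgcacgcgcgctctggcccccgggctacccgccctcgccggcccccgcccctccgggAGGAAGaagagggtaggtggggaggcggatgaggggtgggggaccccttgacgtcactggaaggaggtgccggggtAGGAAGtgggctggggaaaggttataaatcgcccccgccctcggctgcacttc
Tie1: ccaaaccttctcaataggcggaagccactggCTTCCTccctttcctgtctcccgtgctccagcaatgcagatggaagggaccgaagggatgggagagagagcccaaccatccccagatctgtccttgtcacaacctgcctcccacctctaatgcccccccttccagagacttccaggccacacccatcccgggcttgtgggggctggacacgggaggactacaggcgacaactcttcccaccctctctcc
Robo4: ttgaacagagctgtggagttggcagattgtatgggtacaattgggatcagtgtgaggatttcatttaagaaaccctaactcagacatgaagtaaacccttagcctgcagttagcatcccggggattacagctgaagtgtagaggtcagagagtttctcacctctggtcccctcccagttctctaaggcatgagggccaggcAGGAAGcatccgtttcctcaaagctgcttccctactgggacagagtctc
The Flt1 promoter held 2 copies of AGGAAG, that of Robo4 held 1 and that of Tie1 held 1 on the opposite strand, while the Cldn5 window held no copy of these letters. Of the 22 marker and leading genes, 15 matched the promoter table, 6 of them with 2 windows, which overlapped in 1 gene. With the same 250 bases searched in each, 10 of their 21 windows (47.6%) held the motif, against 9686 of all 32851 windows (29.5%). These are descriptions of letters in a window, and no binding was measured.

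Among nuclei with at most 1 Slc17a7 UMI, 85781 had none of the 7 markers, 4486 had 1 and 293 had 2, whereas 27 had 3, 27 had 4, 70 had 5, 165 had 6 and 247 had all 7. Just outside the limit, the nuclei with 2 markers had a median of 5141 UMIs, and 58.7% of them also carried 3 or more of 7 markers of another cell type, 57 of them markers of excitatory neurons. Just inside, the 27 nuclei with 3 markers had a median of 1496 UMIs, and 37.0% carried such foreign markers. A further 18 nuclei with at least 3 markers were left out because of Slc17a7.

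**Figure D1:**
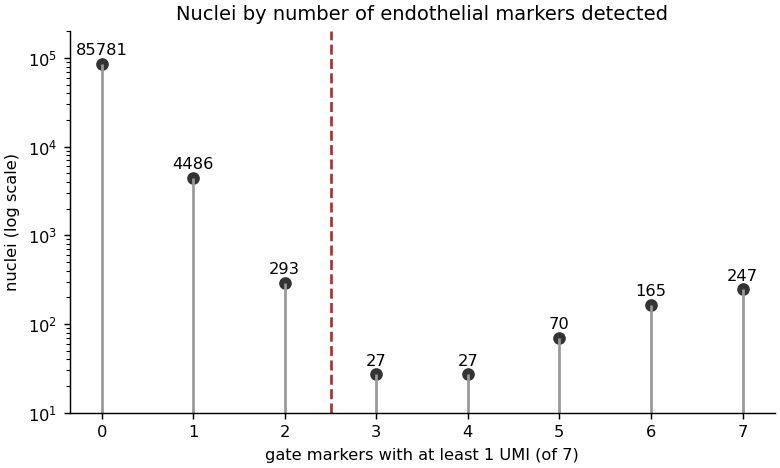
Number of nuclei (log scale) by how many of the 7 endothelial markers had at least 1 UMI, for nuclei with at most 1 Slc17a7 UMI. The counts fall from 85781 nuclei with 0 markers to 27 with 3 or 4 and rise again to 247 with all 7, and the dashed line marks the limit used.

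Endothelial nuclei held little RNA. Their median was 2378.5 UMIs and 1457.5 genes per nucleus, against 7075 UMIs and 2684 genes in the other nuclei, and the 10th and 90th percentiles of UMIs were 1434.5 and 6187.5. Summed over the nuclei, a mouse had between 61184 and 350521 endothelial UMIs, 1769720 in all, so that levels below are given per 1000000 UMIs of a mouse's endothelial nuclei (CPM) as mean ± SD over 11 mice. CPM is not scaled to gene length, so that levels are compared between nuclei for the same gene and not between genes. Of the 536 nuclei, 103 (19.2%) carried 3 or more markers of another type, with a median of 4950 UMIs against 2245 in the rest: 41 carried markers of excitatory neurons, 22 of mural cells, 19 of oligodendrocytes, 10 of smooth muscle, 9 of inhibitory neurons, 6 of microglia, 6 of astrocytes, 5 of fibroblasts and 2 of oligodendrocyte precursors. Libraries shared 15 to 45 cell barcodes in pairs, and no endothelial barcode was shared among them.

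Because the markers chose the nuclei, their levels are a description only. Flt1, a receptor that binds VEGF (chr5:147561604-147726011, GRCm38), stood at 3914 ± 873 CPM (n = 11), was seen in 97.2% of endothelial nuclei and stood at 1.83 CPM in all other nuclei. Cldn5, the main claudin of brain tight junctions (chr16:18776847-18778262), stood at 546 ± 148 CPM and was seen in 64.9% of endothelial nuclei and 0.0875% of the others. Slco1a4, an organic anion transporter of the barrier, stood at 2977 ± 529 CPM, and the transcription factor gene Mecom at 2393 ± 471 CPM. Adgrl4, an adhesion receptor of endothelium, stood at 1979 ± 585 CPM and Ptprb, the phosphatase that restrains the angiopoietin receptor, at 1362 ± 296 CPM. Abcb1a, the efflux pump P-glycoprotein, stood at 954 ± 309 CPM, and no count of it was found in the 788 mural nuclei gated the same way with mural markers. Each marker was high in every mouse: Flt1 ranged from 2641 to 5524 CPM and Cldn5 from 293 to 843 CPM.

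The label was then compared with genes outside the markers. Their list was chosen with earlier results of these data known, so that it is no independent check. All 20 endothelial genes of a list that held none of the markers stood at 10 CPM or more and at least 2 times their level in other nuclei. Among all 3635 genes with enough counts for testing, 984 reached that ratio, and the median ratio was 1.29. The junction protein gene Pecam1 stood at 467 CPM against 2.00 in other nuclei, the cadherin gene Cdh5 at 175 against 0.479, the angiopoietin receptor gene Tek at 598 against 4.20, and Erg, an ETS factor of endothelium, at 310 against 2.17. Ebf1 was less particular, at 2138 CPM in endothelial and 1928 CPM in mural nuclei.

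The genes with the highest ratio of endothelial over other nuclei, taken among genes outside the 7 markers with at least 50 CPM and a count in every mouse, were led by 4930578C19Rik (178 CPM, 5286 times its level elsewhere), Sox17 (124 CPM, 4535 times), Tbx1 (56.5 CPM, 4402 times), Ly6c1 (337 CPM, 3214 times) and Ly6a (308 CPM, 2989 times). Sox17 and Tbx1 encode transcription factors, and Ly6c1 and Ly6a encode membrane-anchored surface proteins of endothelium. Gata2, Fmo2, Robo4, Zfp366, Adgrf5, She, Sox18, Tie1, Vwf and Cyyr1 followed, at ratios between 2090 and 1053. Ly6c1 varied widely among mice, from 50.3 CPM in Ikbkb+/+ 3 to 703 CPM in Ikbkb+/+ 4, and Sox18, a factor of vessel development, from 8.38 to 360 CPM in the same mice.

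Mural cells (pericytes and smooth muscle) sit directly on the endothelium. In the mural nuclei gated here the smooth muscle list summed to 68.2 CPM, against 6249 for the mural list that chose them. No set was gated on smooth muscle genes, so that the ratios below are not a comparison with smooth muscle. Against mural nuclei, and again outside the 7 markers, Cyyr1 was 2141 times higher, but mural nuclei held only 1 of its counts, and the counting interval of the ratio ran from 424 to 93621. Klf2, a shear-responsive transcription factor gene, was 445 times higher (105 to 23420, from 1 mural count), Ly6c1 498 times (134 to 4035, from 2), Nos3, the endothelial nitric oxide synthase gene, 298 times (73.1 to 16281, from 1) and Tie1 294 times (47.9 to 1456, from 2). Degs2, Hmcn1, Ushbp1, Vwf and Rasip1 completed the 10 genes with the highest mural ratio. Sox17, Ly6a, Gata2, Fmo2 and Robo4 had no mural count, which gave ratios of at least 116, 288, 70.9, 139 and 86.2. The ratios are of mean CPM over mice, whereas the intervals are for the ratio of counts pooled over mice and need not centre on them. These intervals and bounds cover counting error only. The 22 nuclei that passed both the endothelial and the mural rule counted as endothelial, and no ratio was taken with them among the mural nuclei.

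**Figure D2:**
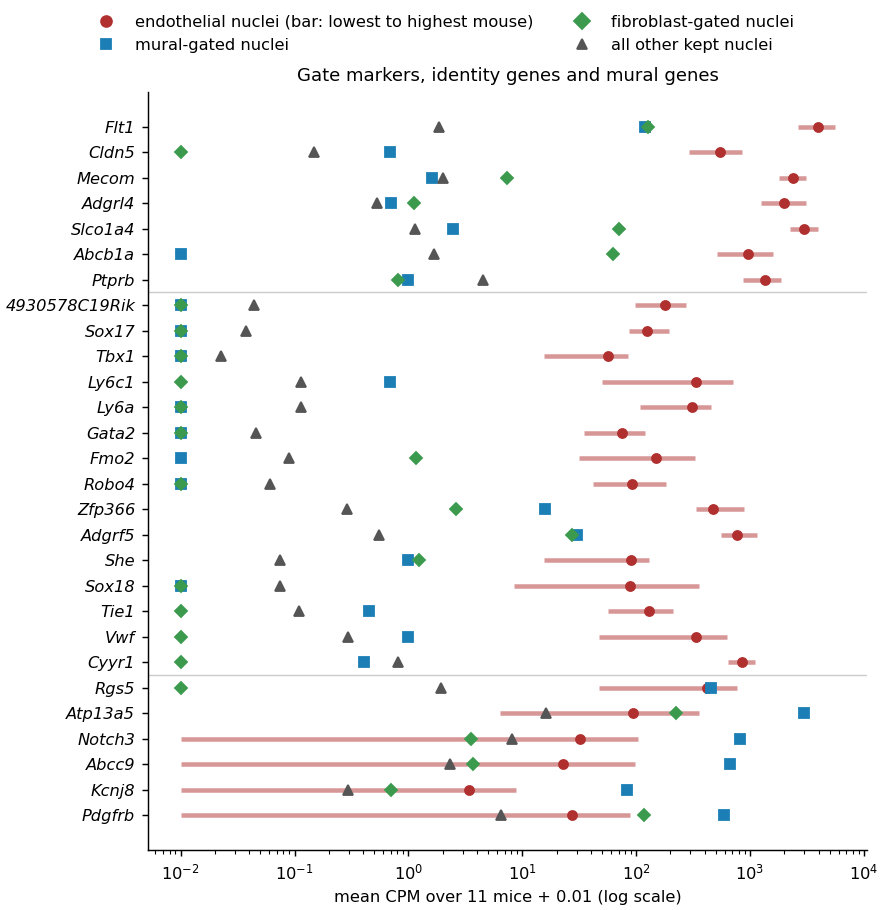
Mean CPM plus 0.01 (log scale) of the 7 markers, the 15 genes of highest ratio and 6 mural genes in endothelial nuclei (circles, with a bar from the lowest to the highest of 11 mice), mural nuclei (squares), fibroblast nuclei (diamonds) and all other nuclei (triangles). Each of the first 22 genes is higher in endothelial nuclei than in the 3 other sets, whereas Rgs5 lies at 420 CPM in endothelial and 451 CPM in mural nuclei.

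Junction genes were high but not uniformly so. Of 14 junction genes other than the marker Cldn5, 10 stood at 10 CPM and 2 times their level elsewhere. The counts of this kind below leave out the markers too. Tjp1, the scaffold ZO-1, stood at 1774 CPM against 582 in other nuclei, occludin (Ocln) at 265 against 4.10, and Lsr, the lipolysis-stimulated receptor found at tricellular contacts, at 121 against 1.11. Cgn, which encodes cingulin, had 6 counts in all endothelial nuclei, and Marveld2, which encodes tricellulin, had 17.

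Most nutrient transporters of the barrier were far above their level in other nuclei, with 18 of 19 solute carriers past the limits. Slc2a1, the glucose transporter, stood at 704 CPM (422 to 975 among mice) against 7.84 elsewhere. Slco1c1, which carries thyroid hormone, stood at 1328 CPM against 23.1, and Slc6a6, the taurine transporter, at 1212 CPM against 181. Slc7a5, the large amino acid transporter, stood at 352 CPM against 10.97. Mfsd2a, which carries lysophosphatidylcholine with its omega-3 fatty acids, stood at 96.5 CPM against 1.84. Slc27a1 was the exception, at 28.6 CPM against 36.1 elsewhere and 108 in mural nuclei.

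Among efflux pumps other than Abcb1a, 4 of 7 genes passed the limits. Abcg2, the breast cancer resistance protein, stood at 620 CPM against 10.2 and Abcc4 at 861 CPM against 40.9, while Abcc1, Abcc5 and Abcb1b were no higher than elsewhere. Abcb1b, the other P-glycoprotein gene, stood at 10.6 CPM against 14.7. How reads from the similar coding sequences of Abcb1a and Abcb1b were counted was not tested. Receptors that ferry proteins were mixed: the insulin receptor gene Insr stood at 489 CPM against 140 elsewhere and the transferrin receptor gene Tfrc at 328 against 30.1, whereas Lrp1 stood at 57.3 against 115. Caveolar genes were present, with Cav1 at 151 CPM against 2.01 and Cavin1 at 78.4 against 0.289. Plvap, the diaphragm protein of leaky vessels, had 8 counts in all, at 4.10 CPM against 4.79 elsewhere.

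All 20 transcription factor genes of the endothelial list other than Mecom passed the limits. Lef1, the nuclear partner of β-catenin, stood at 1288 CPM, 267 times its level elsewhere. Fli1, an ETS factor, stood at 967 CPM, Epas1, a hypoxia-inducible factor, at 761 CPM, and Foxq1, a forkhead factor, at 93.2 CPM against 0.0931. The Wnt list showed 15 of 16 genes above the limits: besides Lef1, the receptor gene Fzd6 stood at 247 CPM against 2.74, the inhibitor gene Apcdd1, itself a Wnt target, at 229 against 3.09, and Adgra2 (GPR124) and Reck, which let the cell sense neural Wnt7, at 127 against 6.56 and 184 against 38.1. Lrp6 fell just short, at 204 against 107.

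In the list of VEGF, angiopoietin and Notch genes, 14 of 22 outside the markers passed the limits, led by the receptor genes Tek and Nrp1. Kdr, the main VEGF receptor gene, stood at 202 CPM against 0.442, Notch4 at 57.0 against 0.286 and the Notch ligand gene Dll4 at 24.5 against 0.483. The tip cell and growth genes Esm1, Apln, Aplnr and Pgf had 0, 2, 2 and 1 counts. Of 14 BMP and TGF-β genes, 11 passed: Bmpr2 stood at 707 CPM, endoglin (Eng) at 493, and the target gene Id1 at 219 CPM against 0.655, with a range among mice from 31.3 to 703 CPM.

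Genes of inflammation were of interest because microglial NF-κB was the pathway altered. Of 32 NF-κB and adhesion genes, 15 passed the limits. Il1r1, the interleukin-1 receptor, stood at 274 CPM against 4.30, Nfkb1 at 242 against 102, and Nfkbia, an inhibitor that NF-κB itself induces, at 150 against 3.15. The adhesion genes Vcam1 and Icam1 also passed the limits, at 44.9 and 16.1 CPM, though on only 81 and 27 counts. Selp had 3 counts, and 4 genes of the list had no count, among them Sele, Il6 and Cxcl10. At 1769720 endothelial UMIs a count of 0 limits only what the pooled nuclei could show. Interferon and MHC class I genes were more widely present, with 22 of 25 above the limits: H2-D1 stood at 189 CPM against 5.01, H2-K1 at 161 against 3.28, B2m at 135 against 4.82 and the receptor gene Ifnar1 at 174 against 18.4.

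The remaining lists were described by their counts. Basement membrane and integrin genes passed in 14 of 18 cases, with Itga6 at 463 CPM against 30.9 and fibronectin (Fn1) at 330 against 2.98. Genes of vascular tone and clotting passed in 10 of 15, with Vwf at 336 CPM and Nos3 at 149. Glucocorticoid response genes passed in 3 of 12 and immediate early and heat shock genes in 4 of 13. In the lipid list 4 of 11 passed, with Sgms1, a sphingomyelin synthase gene, at 2522 CPM against 192 and Apoe at 324 against 72.5, and 3 genes (Gpihbp1, Fabp4 and Lipg) had no count.

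Markers of other cells were checked in the same nuclei. The 7 mural genes summed to between 188 and 1432 CPM per mouse, against 6249 in mural nuclei and 38.1 in the other nuclei. The same 7 genes chose the mural nuclei, so that their levels there are high by that choice. Most of the endothelial sum, on average, was Rgs5, at 420 ± 247 CPM. The pericyte genes Atp13a5 (93.0 CPM against 2989 in mural nuclei) and Notch3 (32.3 against 815) stayed far below mural nuclei, and Kcnj8 had 6 counts. Microglia genes summed to 15.6 to 265 CPM and astrocyte genes to 43.1 to 203 CPM, around their levels in the other nuclei (111 and 144 CPM). Other lists were high in a single mouse: smooth muscle genes summed to 531 CPM in IkbkbCA;P301S+ 2 (at most 127 in the other 10 mice, 68.2 in mural and 3.29 in other nuclei). Fibroblast genes summed to 609.8 CPM in Ikbkb-/-;P301S+ 2 (at most 138 in the rest, 29.9 in other nuclei) and ependymal or choroid plexus genes to 336 CPM in Ikbkb+/+;P301S+ 1 (at most 33.0 in the rest, 9.41 in other nuclei). Excitatory neuron genes summed to 299.6 to 1536 CPM against 2442 elsewhere. Slc17a7, which the rule limited to at most 1 UMI, is 1 of these 7 genes, so that their sum is low in part by that choice. The blood list never exceeded 16.8 CPM, and 4 of its 7 genes were at 0.

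Vessel segments were examined with lists of 10 arterial, 10 venous and 10 capillary genes, and a nucleus was marked for a segment when at least 2 list genes had a UMI. This limit was chosen after the data had been seen. Of the 536 nuclei, 110 (20.5%) were marked arterial only, 115 (21.5%) venous only, 34 (6.34%) both and 277 (51.7%) neither. The nuclei marked both had the highest median depth (3150.5 UMIs) and the most foreign markers (35.3% mixed), and at least 2 capillary genes were seen in 90.3% of the nuclei marked neither, 84.3% of the venous, 65.5% of the arterial and 44.1% of those marked both. Without mixed nuclei the counts were 92, 94, 22 and 225 of 433. A mark needs UMIs: with every nucleus thinned to 1000 UMIs (527 nuclei, mean of 20 thinnings) 66.1 nuclei were arterial and 58.6 venous, and the shallower nuclei left out were 2 of Ikbkb+/+, 2 of Ikbkb+/+;P301S+, 4 of Ikbkb-/-;P301S+ and 1 of IkbkbCA;P301S+.

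Between nuclei marked arterial only and venous only, here called arterial and venous, the list genes divided as the marks require. Gkn3 had 61 counts in arterial and 0 in venous nuclei, Bmx, a kinase gene of arteries, stood at 221 against 2.32 CPM, and Il1r1 at 19.6 against 1025 CPM. More can be read from genes outside the lists, which were picked for large ratios in these same nuclei. The counts of mice given with them rest on few nuclei in some mice. Ikbkb+/+ 4 and Ikbkb-/-;P301S+ 2 had 1 venous nucleus each, and IkbkbCA;P301S+ 1 had 3 arterial nuclei. In such mice a gene can have no count in a segment because few nuclei were sampled. In arterial nuclei Eln, the gene of elastin in artery walls, stood at 748 CPM against 99.9 in venous nuclei and was higher in 10 of 11 mice. Tm4sf1, a membrane protein gene of endothelium, stood at 294 against 37.2 CPM and Glul, glutamine synthetase, at 350 against 60.4 CPM, each higher in 11 of 11 mice. Prdm16, a transcription factor gene active in arteries, stood at 227 against 39.5 CPM (higher in 9 mice), and the long noncoding RNA gene Mannr had 50 counts in arterial and 0 in venous nuclei. In venous nuclei Gm5127 stood at 532 against 5.60 CPM (higher in 8 mice), Nckap5 at 534 against 53.2 and Sdk1 at 525 against 39.2 (each in 9), and Nrp2, a VEGF-C and semaphorin receptor gene of veins, at 293 against 25.2 (in 9). Of the capillary genes, Tfrc stood at 305 in arterial against 293 CPM in venous nuclei, Slc7a5 at 247 against 274, Mfsd2a at 89.6 against 41.8 (120 CPM in nuclei marked neither) and the chemokine gene Cxcl12 at 619 against 188.

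**Figure D3:**
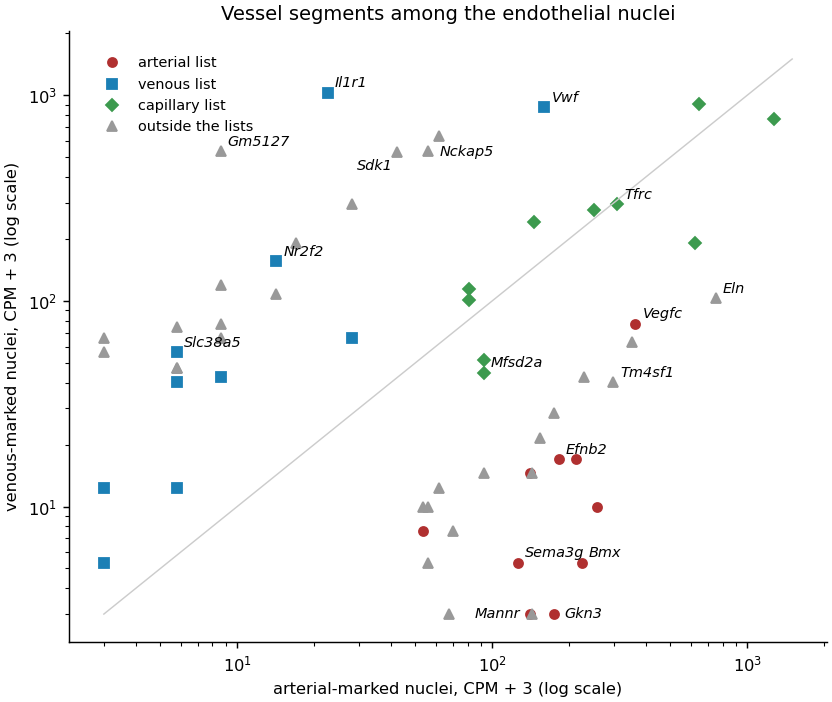
CPM plus 3 in arterial-marked nuclei (x axis) against venous-marked nuclei (y axis), both on log scales, for genes of the arterial, venous and capillary lists and for genes outside the lists with the largest ratios, with the line of equal level. Arterial genes lie at the lower right and venous genes at the upper left, while of the capillary genes Tfrc (305 and 293 CPM) and Slc7a5 (247 and 274 CPM) lie near the line and Cxcl12 lies at 619 and 188 CPM.

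Some venous differences were carried by a few nuclei. Htr2c stood at 627 CPM in venous against 58.8 in arterial nuclei, but at 29.9 against 64.7 CPM without mixed nuclei. The pericyte gene Vtn likewise stood at 151 in arterial against 18.6 CPM in venous nuclei and at 12.1 against 7.48 CPM without mixed nuclei. Within single nuclei, arterial genes were seen together: of the 64 nuclei with a Bmx UMI, 65.6% had Eln, against 12.3% of nuclei without Bmx, and 43.8% had Mgp against 6.14%. Capillary genes were rarer there, with Mfsd2a in 6.25% against 22.2% and Tfrc in 20.3% against 47.9%. The median depths of nuclei with and without Bmx were 2424.5 and 2374 UMIs. Vwf, higher in venous nuclei, was nonetheless seen in 56.3% of nuclei with Bmx, against 40.04% of those without, and the venous list gene Vcam1 in 21.9% against 5.51%. Of the 40 nuclei with a Vcam1 UMI, 57.5% had Eln, against 15.5% of those without. These shares describe nuclei of 11 mice pooled and have no test.

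Within each group the share of endothelial nuclei ranged more widely than the group means differed. They made up 0.307%, 0.603%, 0.432% and 0.145% of nuclei in the 4 Ikbkb+/+ mice, 0.663%, 0.459% and 0.275% in the 3 Ikbkb+/+;P301S+ mice, 0.793% and 0.299% in the 2 Ikbkb-/-;P301S+ mice and 0.269% and 0.875% in the 2 IkbkbCA;P301S+ mice. Every group held a mouse near 0.3% or lower and a mouse near 0.6% or higher, so that the groups overlapped. The 95% Clopper-Pearson intervals were 0.0794 to 0.244% for the lowest mouse and 0.711 to 1.07% for the highest. The mean was 0.466 ± 0.194% in Ikbkb+/+;P301S+ and 0.372 ± 0.194% in Ikbkb+/+ mice (difference 0.0940 percentage points, exact two-sided permutation p = 0.571). It was 0.546 ± 0.349% in Ikbkb-/-;P301S+ mice (exact permutation p = 0.7 against Ikbkb+/+;P301S+) and 0.572 ± 0.429% in IkbkbCA;P301S+ mice (exact permutation p = 0.7). All 7 P301S+ mice had 0.519 ± 0.257% (exact permutation p = 0.342 against Ikbkb+/+), and p adjusted over these 4 comparisons was 0.7 for each. With 2 mice against 3 the smallest possible p was 0.1, and no such p shows that shares were alike. A share of nuclei can move with the recovery of nuclei as well as with the number of cells, and these cannot be told apart here.

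The endothelial share moved with the share of mural nuclei. Mural nuclei made up between 0.464% and 1.06% of nuclei, and over 11 mice the shares correlated with Pearson r = 0.851 (permutation p = 0.00109, adjusted over 2 relations 0.00218) and Spearman rho = 0.755 (permutation p = 0.01, adjusted 0.0201). Without the 2 mice farthest from the median endothelial share, IkbkbCA;P301S+ 2 and Ikbkb-/-;P301S+ 1, r was 0.578, so that the relation rested in large part on those mice. Within the floxed line r was 0.806 (n = 6), and the active line held 5 mice, too few for a value. The share of fibroblast nuclei gave r = 0.335 (permutation p = 0.311) and rho = 0.373 (permutation p = 0.261), and r = 0.168 without its 2 farthest mice. The shares use the same denominator. The 22 nuclei that passed both the endothelial and the mural rule counted only in the endothelial share.

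Endothelial depth differed somewhat between mice. The median UMIs per endothelial nucleus were 2090, 2271, 2200 and 3251.5 in Ikbkb+/+ mice, 1735, 2191.5 and 2740 in Ikbkb+/+;P301S+ mice, 2425 and 2538.5 in Ikbkb-/-;P301S+ mice and 3617 and 3008 in IkbkbCA;P301S+ mice. Both IkbkbCA;P301S+ mice lay above all Ikbkb+/+;P301S+ mice, with a difference of 1090 UMIs between the means (exact permutation p = 0.2, adjusted 0.685), and within the active line alone, 2 mice against 1, the difference was 572.5. The other 3 comparisons overlapped (exact permutation p between 0.6 and 0.685).

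**Figure D4:**
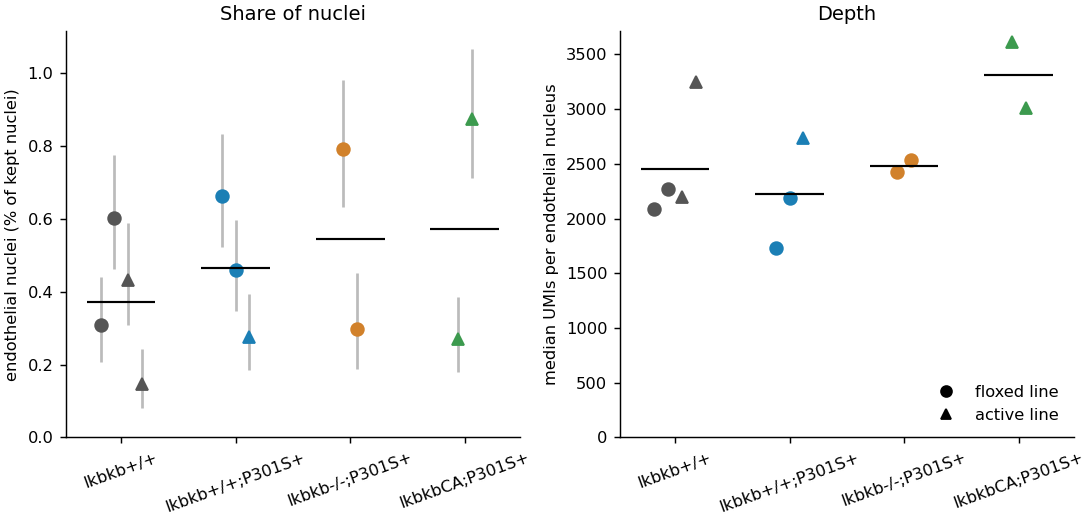
Endothelial nuclei as a percent of kept nuclei, with 95% Clopper-Pearson intervals as bars (left), and median UMIs per endothelial nucleus (right), 1 point per mouse with circles for the floxed line and triangles for the active line and a line at the group mean. The shares overlap in all groups, from 0.145% to 0.875%, and the IkbkbCA;P301S+ mice lie at 3617 and 3008 UMIs.

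Gene expression was compared between genotypes on UMIs summed per mouse. The quasi-likelihood test of edgeR on 3635 genes called 0 genes at an adjusted p under 0.05 for P301S tau (Ikbkb+/+;P301S+ against Ikbkb+/+), 0 for the microglial knockout and 0 for active IKKβ (each against Ikbkb+/+;P301S+), and 0 for all P301S+ mice against Ikbkb+/+, so that the percentage called was 0 in each. DESeq2 also called 0 in each, and without the filter on low counts edgeR called 14, 31, 12 and 7 of 17525 genes. At an unadjusted p under 0.05, edgeR passed 148 (4.07%), 208 (5.72%), 107 (2.94%) and 148 (4.07%) genes, and DESeq2 passed 81, 118, 45 and 84. The biological coefficient of variation between mice was 26.2%. With the filter no list had a called member. The genes called without it included Bmx, Mgp and Fbln5 of the arterial list and Ttr of the ependymal or choroid plexus list. Also among them were Atp13a5 of the mural, Acta2 of the smooth muscle and Bnc2 and Slc6a13 of the fibroblast list.

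Slc2a1, the glucose transporter gene, had a log2 fold change of 0.01 ± 0.25 (SE) with P301S tau at an adjusted p of 0.999 (edgeR). Of 17 tested solute carriers outside the markers, 9 had a higher and 8 a lower fitted level with tau, 0 at an unadjusted p under 0.05. With active IKKβ, 13 of 17 solute carriers had a higher fitted level (median log2 fold change 0.24, 2 at an unadjusted p under 0.05, against 2.94% of all tested genes), as had 15 of 19 endothelial genes outside the markers (0.23) and 12 of 13 transcription factor genes (0.26), against 1742 of all 3635 genes (-0.02). With the knockout, 11 of 17, 16 of 19 and 12 of 13 of these lists had a lower fitted level (medians -0.18, -0.31 and -0.36), against 1835 of 3635 (-0.01). The shift was not limited to these lists: of 14 tested Wnt genes, 12 were higher with active IKKβ and 10 lower with the knockout. Of 6 tested arterial genes, 4 were lower with active IKKβ and 5 with the knockout. Markers of other cells moved beside the endothelial lists: the 3 tested excitatory neuron genes had a higher fitted level with the knockout (median 1.09) and a lower one with active IKKβ (-0.13). The 7 oligodendrocyte genes summed to 206 and 594 CPM in Ikbkb-/-;P301S+, 165 and 208 in IkbkbCA;P301S+ and 49.5, 146 and 123 in Ikbkb+/+;P301S+ mice. Their part in these counts was not tested. Both comparisons use the same Ikbkb+/+;P301S+ mice. Of 7 tested NF-κB genes, 1 passed the unadjusted limit with tau, 1 with the knockout and 0 with active IKKβ, against 4.07%, 5.72% and 2.94% of all tested genes. Nfkbia, for instance, stood at 112, 101, 67.0 and 311 CPM in Ikbkb+/+ mice, 228, 165 and 88.1 in Ikbkb+/+;P301S+, 115 and 93.8 in Ikbkb-/-;P301S+ and 141 and 225 in IkbkbCA;P301S+ mice. The groups overlapped in each comparison made, while both IkbkbCA;P301S+ mice lay above both Ikbkb-/-;P301S+ mice, which were not compared with each other.

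The genes of lowest p in each comparison are given as values that did not pass with the filter on low counts. Without it, edgeR called Cp, Htr2c and Prdm16 for tau, Cp, Bmx and Fstl4 for the knockout, Htr2c, Cdh13 and Bmx for active IKKβ and Tenm2 and Atp13a5 for all P301S+ mice. The comparisons share mice, the tau, knockout and active IKKβ comparisons those of the Ikbkb+/+;P301S+ group, so that their results are not independent. Cp, which encodes ceruloplasmin, a copper protein that oxidizes iron on its way out of cells (chr3:19957054-20009145), stood at 86.3, 219.7, 235 and 131 CPM in Ikbkb+/+ mice, 401, 431 and 485 in Ikbkb+/+;P301S+, 108 and 141 in Ikbkb-/-;P301S+ and 231 and 145.5 in IkbkbCA;P301S+ mice. The 3 Ikbkb+/+;P301S+ mice thus lay above all 8 others. The log2 differences were 1.32 ± 0.30 (SE) for tau (adjusted p = 0.694, edgeR), -1.85 ± 0.39 for the knockout (0.771) and -1.28 ± 0.36 for active IKKβ (0.999).

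H2-K1, an MHC class I gene (chr17:33996017-34000347), stood at 77.7, 107, 184 and 98.1 CPM in Ikbkb+/+, 183, 266 and 335 in Ikbkb+/+;P301S+, 83.7 and 93.8 in Ikbkb-/-;P301S+ and 157 and 183 in IkbkbCA;P301S+ mice. Both knockout mice lay below all 3 Ikbkb+/+;P301S+ mice (-1.53 ± 0.38, adjusted p = 0.771, edgeR). H2-D1 and B2m did not show this separation. H2-D1 stood at 178, 203 and 317 CPM in Ikbkb+/+;P301S+ mice and at 115 and 219 CPM in Ikbkb-/-;P301S+ mice. B2m stood at 98.9, 190 and 194 CPM against 90.7 and 109 CPM. Psmb8 did separate, at 14.8, 44.4 and 26.4 CPM against 10.5 and 0 CPM.

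Flvcr2, a choline transporter gene of brain endothelium (chr12:85746539-85813585), stood at 233, 197, 218 and 196 CPM in Ikbkb+/+ mice and was lower in each of the 7 P301S+ mice, at 64.3, 88.7 and 132 CPM in Ikbkb+/+;P301S+, 115 and 188 in Ikbkb-/-;P301S+ and 124 and 131 in IkbkbCA;P301S+ mice. The log2 difference was -1.22 ± 0.29 for tau (adjusted p = 0.694, edgeR) and -0.85 ± 0.23 for all P301S+ mice (0.999). This rested on 248 counts in 160 nuclei, with at most 6 counts in any nucleus.

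The arterial genes Bmx (chrX:164192842-164258193) and Prdm16 (chr4:154316125-154636873), are given beside the arterial share of the samples. Bmx is 1 of the 10 genes whose UMIs make the arterial mark, so that its level and that share are not independent, while Prdm16 is not among them. Bmx stood at 86.3, 78.9, 41.9 and 16.3 CPM in Ikbkb+/+, 74.2, 298 and 167 in Ikbkb+/+;P301S+, 24.4 and 15.6 in Ikbkb-/-;P301S+ and 8.26 and 54.2 in IkbkbCA;P301S+ mice (knockout -2.91 ± 0.75, adjusted p = 0.771, edgeR). Prdm16 stood at 25.9, 67.6, 117 and 49.0 CPM in Ikbkb+/+, 208, 253 and 176 in Ikbkb+/+;P301S+, 59.3 and 62.5 in Ikbkb-/-;P301S+ and 33.0 and 137 in IkbkbCA;P301S+ mice (tau 1.66 ± 0.42, adjusted p = 0.832, edgeR). Nuclei marked arterial only, without those marked both, made up 13.8%, 21.3%, 15% and 35.7% of endothelial nuclei in Ikbkb+/+ mice. Their share was 24.3%, 30.4% and 23.3% in Ikbkb+/+;P301S+, 16.9% and 18.2% in Ikbkb-/-;P301S+ and 10.3% and 19.4% in IkbkbCA;P301S+ mice. The Ikbkb+/+;P301S+ mice lay above both Cre groups (differences of -8.48 and -11.1 percentage points, exact permutation p = 0.1 each, the smallest these mice allow, adjusted over 8 values 0.4). At equal depth the shares were 9.82%, 10.7%, 11.5% and 9.64% in Ikbkb+/+ and 14.5%, 23.0% and 18.2% in Ikbkb+/+;P301S+ mice, which did not overlap (exact permutation p = 0.0286, the smallest possible, adjusted over 8 values 0.229), and 7.75%, 7.38%, 4.11% and 13.6% in the Cre mice. Ikbkb+/+ and Ikbkb+/+;P301S+ mice overlapped without thinning (exact permutation p = 0.514, adjusted 0.838) and without mixed nuclei (exact permutation p = 0.429, adjusted 0.857). For the knockout, exact permutation p was 0.1 at equal depth and 0.2 without mixed nuclei. For active IKKβ it was 0.2 and 0.1. Each adjustment covered 8 values of a single version of the share and not the versions together. In the arterial list 6 of 10 genes could be tested, of which 2 were higher with tau at an unadjusted p under 0.05 (4.07% of all tested genes in either direction), 4 lower with the knockout (5.72%) and 1 lower with active IKKβ (2.94%), and none was called with the filter on low counts. How far this share of arterial nuclei enters the values of Bmx and Prdm16 was not tested.

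Nuclei marked venous only made up 24.1%, 19.7%, 35.0% and 7.14% of endothelial nuclei in Ikbkb+/+ mice. Their share was 13.5%, 16.1% and 23.3% in Ikbkb+/+;P301S+, 22.9% and 4.55% in Ikbkb-/-;P301S+ and 44.8% and 22.4% in IkbkbCA;P301S+ mice. The groups overlapped, with exact permutation p between 0.2 and 0.961. IkbkbCA;P301S+ 1 had the largest venous share, 13 of its 29 nuclei, and Ikbkb-/-;P301S+ 2 the smallest, 1 of 22.

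Htr2c is a serotonin receptor gene best known for its abundance in choroid plexus (chrX:146962513-147197277). Among genes kept by the filter on low counts it had the largest fitted change with tau, 4.01 ± 0.92 (adjusted p = 0.694, edgeR), and this came from 1 mouse. Htr2c stood at 2226 CPM in Ikbkb+/+;P301S+ 1, at 184 and 52.9 CPM in the other mice of that group and at 8.26 to 94.9 CPM in the remaining 8 mice. Of its 550 counts, 253 (46.0%) lay in 1 nucleus. The 3 nuclei of that mouse that carried Otx2os1, transcribed opposite the choroid plexus gene Otx2, held 435 of the Htr2c counts and 46 of 69 counts of Ttr, the choroid plexus gene for transthyretin, with 3 to 6 endothelial markers and 1859 to 17990 UMIs each. Without these nuclei Htr2c stood at 86.9 CPM in this mouse.

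Tenm2, an adhesion gene also used by neurons (chr11:36006656-37235964), led the comparison of all P301S+ mice. It stood at 2485, 1752, 2581 and 1079 CPM in Ikbkb+/+, 1296, 995 and 811 in Ikbkb+/+;P301S+, 1224 and 1048 in Ikbkb-/-;P301S+ and 446 and 939 in IkbkbCA;P301S+ mice (-1.08 ± 0.26, adjusted p = 0.999, edgeR). The excitatory neuron genes in the same nuclei summed to 1536, 1031, 972 and 425 CPM in Ikbkb+/+, 1078, 596 and 299.6 in Ikbkb+/+;P301S+, 1088 and 829 in Ikbkb-/-;P301S+ and 735 and 556 in IkbkbCA;P301S+ mice, and their part in the result was not tested. Atp13a5, a pericyte gene, had 139 counts in 27 nuclei (-1.83 ± 0.54, adjusted p = 0.999, edgeR), and the mural genes summed to 260 to 1432 CPM in Ikbkb+/+ and 188 to 1278 CPM in P301S+ mice, likewise not tested. Fhit stood at 86.3 to 168 CPM in Ikbkb+/+ and 158 to 516 CPM in P301S+ mice, and Vdac2, a mitochondrial porin gene, at 8.63 to 65.4 and 57.0 to 93.8 CPM. Both overlapped slightly.

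**Figure D5:**
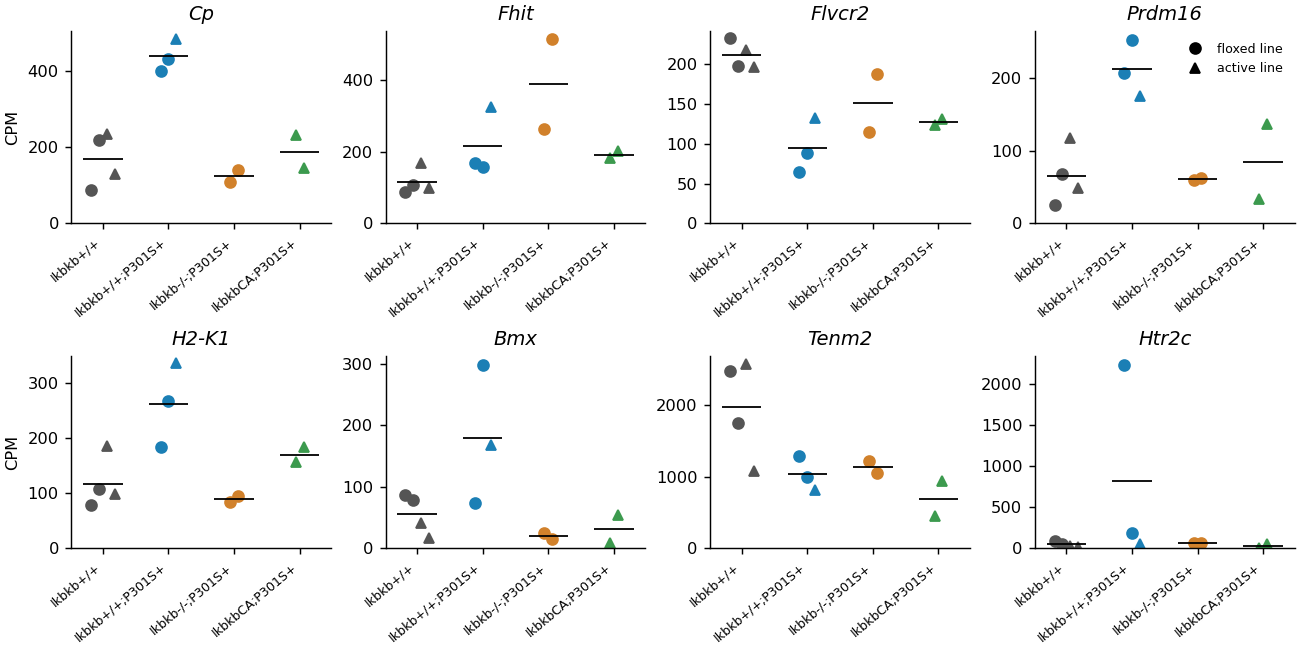
CPM per mouse in the summed endothelial nuclei for 8 of the genes of lowest p, 1 point per mouse by group, with circles for the floxed line and triangles for the active line and a line at the group mean. In the Cp panel the 3 Ikbkb+/+;P301S+ mice lie between 401 and 485 CPM, above the other 8 mice, and in the Htr2c panel 1 mouse stands at 2226 CPM, while no gene shown passed the adjusted test with the filter on low counts.

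The other genes of lowest p are given by their values. Against Ikbkb+/+;P301S+ mice, at 158, 152 and 211 CPM, Ssfa2 stood at 76.7 and 31.3 CPM in the knockout mice. Fstl4 stood at 104, 63.4 and 52.9 CPM against 356 and 125 CPM in the knockout mice, and 102 of its 236 counts lay in 1 mouse. With active IKKβ, Cdh13, which encodes T-cadherin, stood at 99.1 and 157 CPM against 331, 589 and 361, and Trank1 at 57.8 and 45.6 CPM against 114, 133 and 132. None was called with the filter on low counts.

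The genes of the alleles were read last. Ikbkb stood at 85.6 ± 20.8 CPM (61.7 to 114 over 11 mice) in endothelial nuclei and 49.1 CPM in other nuclei, and its log2 difference was 0.17 ± 0.41 with the knockout (adjusted p = 0.982, edgeR). This checks no deletion, since the counts come from 3′ ends and the Cre was not directed at endothelium. Cx3cr1, the microglial gene that carries Cre, stood at 13.6 CPM, with 0 counts in 6 mice. Mapt, the mouse tau gene, stood at 223 ± 71.8 CPM against 583 elsewhere and between 147 and 268 CPM in Ikbkb+/+ and 152 and 194 CPM in Ikbkb+/+;P301S+ mice. It stood at 310 and 375 CPM in Ikbkb-/-;P301S+ mice, above all Ikbkb+/+;P301S+ mice (1.02 ± 0.30, adjusted p = 0.771, edgeR), and at 248 and 228 CPM in IkbkbCA;P301S+ mice, also above them. The oligodendrocyte genes, given above, were likewise higher in all 4 of these mice than in the Ikbkb+/+;P301S+ mice. Neither their part nor that of reads from the human transgene was tested. Prnp, whose promoter drives that transgene, had 1 count.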

How the data were processed

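Nuclei of flash-frozen cortex were sorted on DAPI and profiled with 10x 3′ chemistry, 1 library per mouse, the mice being separate animals. The deposited files hold whole-number UMI counts per gene and cell barcode, which the authors made with Cell Ranger 3.1.0 on an mm10 pre-mRNA reference, so that intronic reads were counted. Replicates were not pooled. Of 114118 barcodes, 0 fell under 300 genes, 23 exceeded 8000 genes and 1556 exceeded 5% mitochondrial UMIs, leaving 112539. No doublet caller was run here, and the tests were repeated without nuclei that carried 3 or more of 7 markers of another type. Counts of the endothelial nuclei were summed per mouse.

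Genes were tested with edgeR 4.0.16 (quasi-likelihood, TMM factors 0.967 to 1.04, filterByExpr, all 4 groups in a single fit with 7 residual degrees of freedom) in R 4.3.3, with Benjamini-Hochberg adjustment over 3635 genes, and called at an adjusted p under 0.05 with a log2 fold change over 0.1 in size. DESeq2 1.42.0 was an alternative. Shares and medians were compared by exact two-sided permutation of mice (scipy 1.17.1). The tests were first tried on simulated counts. The promoters come from RefSeq and gene positions from the GENCODE annotation of GRCm38.

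The named genes are the 5 of smallest p per comparison where under 5 were called, the 15 of highest ratio over other nuclei and 10 over mural nuclei (markers left out, at least 50 CPM, a count in every mouse), up to 4 of highest mean CPM per list and the genes of the alleles; 1 gene of this rule is not reported here. Other list members named with few or no counts, the genes that separated arterial from venous nuclei and further examples from the lists were picked after their values were seen, as were the segment measures. The members and lists were chosen with earlier results of these data known. Alternatives were the marker limits, the Slc17a7 limit, normalization, the filter, leaving out each mouse, breeding line or age as a covariate, each line alone, the replicate block and, added after seeing the data, no mitochondrial limit.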

Additional observations from a re-analysis of the deposited data

Results flagged for a closer look

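Among the 4 Ikbkb+/+ mice, 5 of 34 measures had a mouse that stood apart from the other 3 by Dixon's 95% criterion for 4 samples, where chance alone marks about 1 in 20. Ikbkb+/+ 4 had a median of 3251.5 UMIs per endothelial nucleus, against 2090 to 2271 in the others, and this mouse had only 14 endothelial nuclei. The capillary list summed to 5949 CPM in the same mouse, against 3235 to 3693. The arterial list summed to 676 CPM in Ikbkb+/+ 2, against 409 to 444, and the list of oligodendrocyte precursor genes to 687 CPM in Ikbkb+/+ 2, against 117 to 164. Fstl4 stood at 207 CPM in Ikbkb+/+ 1, against 58.7 to 65.4 CPM. With the filter on low counts, no gene was called in a comparison with these mice. Of 34 measures compared between the floxed and the active line, none moved in opposite directions in every mouse.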

How the results depend on the processing

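The count of 0 called genes was unchanged by DESeq2, its size factors, the other marker and Slc17a7 limits, breeding line as a covariate, removing mixed nuclei and omitting the mitochondrial limit. Without the filter on low counts, edgeR called 14 genes for P301S, 31 for the knockout, 12 for active IKKβ and 7 for all P301S+ mice, and with age as a covariate 1 for the knockout (Htr2c, adjusted p = 0.00204, edgeR). Among the 31, Bnc2 and Slc6a13 are on the fibroblast list, which summed to 609.8 CPM in Ikbkb-/-;P301S+ 2 against 17.4 CPM in Ikbkb-/-;P301S+ 1, and its part was not tested. Leaving out each mouse in turn gave 0 to 1 calls for P301S (Htr2c without Ikbkb+/+;P301S+ replicate 3), 0 to 3 for the knockout (Ror1, Mpp6 and Ranbp3l without Ikbkb-/-;P301S+ replicate 1, where the lone mouse is assumed to vary like the other groups), and 0 to 0 for the others. The replicate block on the title number also called 0 genes in each comparison (148, 198, 95 and 140 at an unadjusted p under 0.05), and the numbers did not pair the mice: 22 same-numbered pairs had a median correlation of -0.0006 (-0.179 to 0.18), 1 of them over 0.1, and 3 of 11 mice correlated best with their own number.

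The difference in endothelial share, in percentage points, ran over left-out mice from -0.0048 to 0.189 for P301S, -0.167 to 0.327 for the knockout, -0.197 to 0.409 for active IKKβ and 0.0716 to 0.224 for all P301S+ mice, and turned to -0.0124 (knockout) and -0.0984 (active IKKβ) at 2 markers and to -0.0101 (knockout) without mixed nuclei. The difference in median UMIs ran from -489.9 to 35.2 for P301S, 16 to 518.5 for the knockout, 786 to 1395 for active IKKβ and -13.5 to 420.9 for all P301S+ mice, and was 674 (P301S) and -748 (knockout) at 2 markers, where mixed nuclei enter, and 572.5 (active IKKβ) in the active line alone. The causes were not tested. Over all alternatives, 424 values of named genes kept their direction and side of the threshold, 13 passed it and 0 turned. Depth limits these results: 14 endothelial nuclei and 61184 UMIs in the smallest mouse, and 2 mice in each Cre group.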

Other observations

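Barcodes removed for mitochondrial UMIs held endothelial nuclei more often than the rest did. Of the 1556 barcodes over the 5% limit, 50 (3.21%) had at least 3 of the 7 markers, between 1 and 11 per mouse, against 0.476% of the nuclei within the limit. Among the nuclei within it, the median mitochondrial share was 0.195% of UMIs in endothelial nuclei and 0.00712% in the other nuclei. The endothelial nuclei also held fewer UMIs than the others, with medians of 2378.5 and 7075. No test was made of these differences, since the markers that define the nuclei need UMIs to be seen.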
